A study of Mus musculus with 16 samples.

Results

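A set of liver-made complement genes, 9 of the 48158 genes with summed values and of the 11790 that reached at least 1 FPKM (fragments scaled for transcript length and library depth) in at least 2 libraries, was described in mouse hepatocyte RNA. They were chosen by name, as Mbl2, C4b, Cfb, Cfi, C6, C8a, C8b, C8g and C9, and all 9 passed that filter. Livers of FVB mice, an inbred strain, were taken from animals on normal feed (CHOW) or after 4 weeks on feed with DDC, a dihydrocollidine compound that disturbs haem synthesis and injures liver and bile ducts. Hepatocytes of both diets were isolated with the elongation inhibitor cycloheximide, which holds ribosomes on their messages. Polyadenylated RNA was sequenced from cytoplasm and from 3 sucrose gradient pools, monosomes (1 ribosome), light polysomes (2 to 4 ribosomes) and heavy polysomes (more than 5), which gives 8 groups by diet and pool and 2 libraries in each. The labels give neither age nor sex, and they do not say which libraries came from separate animals, so p-values measure only the spread between these samples. The CHOW gradient libraries carry paired names (CH1_CH2 and CH3_CH4), the CHOW cytoplasmic ones CH1 and CH3, the DDC gradient ones B and C, and the DDC cytoplasmic ones C2 and D2.

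Complement is a cascade of plasma proteins that tags and lyses foreign cells and damaged surfaces, and hepatocytes secrete most of it. Mannose-binding lectin (Mbl2) recognises sugars and starts the lectin pathway, C4b (the mouse C4 gene) and factor B (Cfb) supply parts of the enzymes that cleave C3, and factor I (Cfi) is the protease that shuts those enzymes down. C6, the 3 chains of C8 and C9 then join C5b and C7 in the membrane attack complex, a pore. Several complement genes, factor B among them, are acute phase genes that liver cells induce in inflammation.

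Start regions are shown for the 4 genes of the membrane attack complex that moved together between the CHOW preparations. The genes were picked by that pattern, and a link between it and these sequences was not tested. The regions of C6, C8a, C8b and C9 are from the RefSeq table of GRCm38.p6. Each runs 5′ to 3′ on the gene's strand from 250 bases before to 50 bases after the start: C6 on the plus strand at chr15:4726960-4727259, C8a on the minus strand at chr4:104876349-104876648, C8b on the plus strand at chr4:104766067-104766366 and C9 on the plus strand at chr15:6445096-6445395. Capitals mark matches to 4 motifs searched on both strands.
C6: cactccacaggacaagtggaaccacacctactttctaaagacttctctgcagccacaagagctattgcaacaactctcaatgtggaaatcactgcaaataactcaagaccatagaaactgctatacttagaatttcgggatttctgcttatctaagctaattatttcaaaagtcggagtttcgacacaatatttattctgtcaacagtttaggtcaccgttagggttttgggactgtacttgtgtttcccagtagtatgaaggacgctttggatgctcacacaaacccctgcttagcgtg
C8a: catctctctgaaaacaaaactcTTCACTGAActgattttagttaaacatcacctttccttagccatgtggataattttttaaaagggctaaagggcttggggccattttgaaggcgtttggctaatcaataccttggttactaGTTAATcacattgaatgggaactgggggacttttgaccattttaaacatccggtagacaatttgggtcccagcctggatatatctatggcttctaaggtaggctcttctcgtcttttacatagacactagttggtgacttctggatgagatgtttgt
C8b: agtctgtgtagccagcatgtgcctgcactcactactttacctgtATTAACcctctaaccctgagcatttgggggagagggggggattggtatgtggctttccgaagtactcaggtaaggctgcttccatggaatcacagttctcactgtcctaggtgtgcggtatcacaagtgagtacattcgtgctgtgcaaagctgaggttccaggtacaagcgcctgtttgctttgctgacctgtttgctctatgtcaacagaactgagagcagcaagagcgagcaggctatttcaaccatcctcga
C9: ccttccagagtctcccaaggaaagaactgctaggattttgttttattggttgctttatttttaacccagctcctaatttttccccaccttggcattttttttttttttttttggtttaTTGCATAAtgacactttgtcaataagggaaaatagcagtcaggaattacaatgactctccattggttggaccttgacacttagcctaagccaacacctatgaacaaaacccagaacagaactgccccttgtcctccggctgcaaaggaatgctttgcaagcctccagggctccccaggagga

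The motifs were a STAT site (TTCNNNGAA), which 8.3% of 32851 mouse start regions of this length held, an HNF1 half-site (GTTAAT, 7.1%), a C/EBP site (TTGCNNAA, 10.8%) and a TATA box (TATAAA, 13.6%). The C8a region held a STAT match at -228 and an HNF1 half-site at -107, the C8b region an HNF1 half-site at -206, and the C9 region a C/EBP match at -132, counted in bases from the start to the match's first base. None of the 4 letter patterns occurred in the C6 window, in either C8g window or in the Mbl2 window. No motif was shared by all 4 of the genes shown. C4b, Cfb and Cfi are named only. In all, 6 of the 9 genes matched the table.

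One CHOW preparation stood apart before any diet was compared. Xist, the RNA that coats the inactive X chromosome, was at 0.0394 to 2.44 FPKM in the 4 libraries of CHOW replicate 1, lowest on heavy polysomes, and at 0 in the other 12 libraries. Ddx3y, Eif2s3y, Kdm5d and Uty, all on the Y chromosome, were at 0 in those 4 libraries, while Eif2s3y was at 4.2 to 34.5 FPKM in each of the other 12. In mice several terminal complement proteins are known to circulate at higher levels in males. The CHOW replicates therefore differ in sex-linked RNA, and this cannot be told apart from any other difference between the CH1 and CH3 preparations. The diet differences and the heavy polysome against monosome calls made without a replicate block are given with and without its 4 libraries, and the likeness between genes and the marker sums with all libraries. The fit without them has 1 library in each CHOW group, which is assumed to vary like the other groups.

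C6, C8a, C8b and C9 were each at least 2-fold higher in CHOW replicate 2 than in CHOW replicate 1 in all 4 pools, on the scale of log2(FPKM + 1). Only 72 of the 11790 genes (0.611%) did so, and 77 were at least 2-fold lower in all 4. The same comparison of the DDC replicates gave 3 genes above and 9 below, with no complement member among them. DDC cytoplasm carries other preparation names than the DDC gradient pools, so this count is no match for the CHOW one. On DDC monosomes, light and heavy polysomes C6 differed by 1.21, 2.17 and 1.07, and in DDC cytoplasm by -0.59. C8a, C9 and Mbl2 were also above 0 in these gradient pools, and C8b on light polysomes only. Between the CHOW replicates C6 differed most, by 4.34 to 5.33 on the log2 scale over the 4 pools. The difference was 2.25 to 3.39 for C8a, 1.33 to 2.14 for C8b and 1.65 to 2.11 for C9. C8g, the third C8 chain, differed by no more than 0.14 in any pool, and Cfb and Cfi lay between -0.34 and 0.17. In CHOW, Mbl2 went the other way in every pool, with differences of -1.0 to -0.67. The most common small value of FPKM times length in each CHOW cytoplasmic library was taken as 1 fragment. On that assumption the main C6 transcript, C6-204, rested on about 334 fragments in replicate 1 and 6930 in replicate 2.

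**Figure D1:**
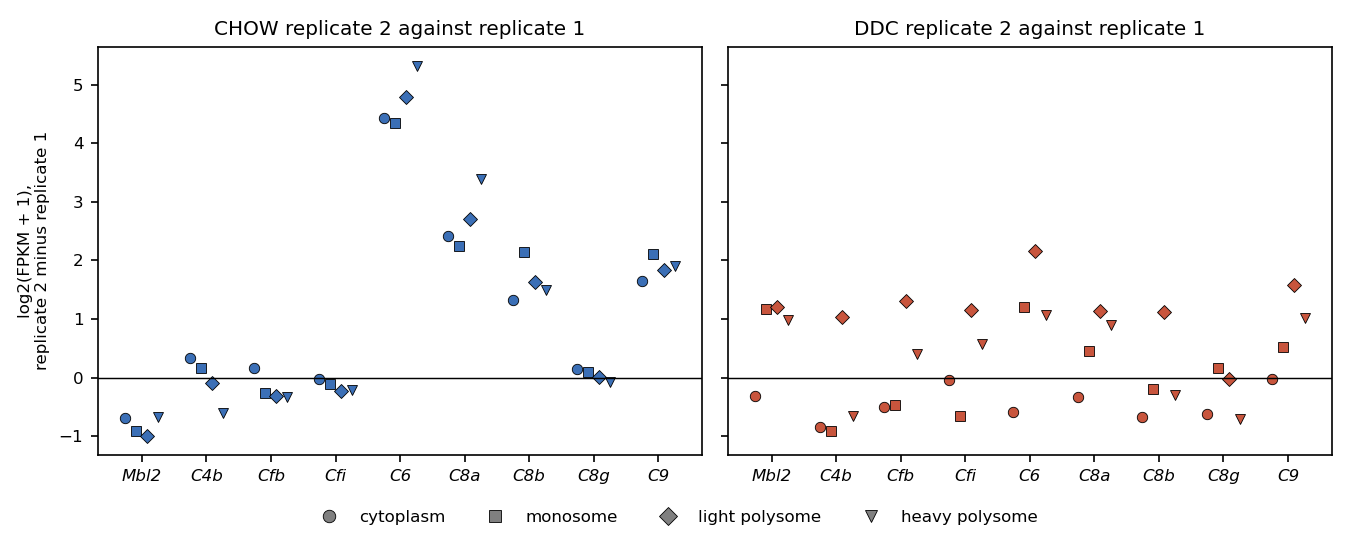
Difference between the replicates of each diet, replicate 2 minus replicate 1 in log2(FPKM + 1), for the 9 genes (x axis) in the 4 RNA pools (symbols). In CHOW (left), C6, C8a, C8b and C9 lie between 1.33 and 5.33 in every pool, while C8g lies near 0. In DDC (right), C6, C8a, C9 and Mbl2 lie between 0.45 and 2.17 in every gradient pool and between -0.59 and -0.02 in cytoplasm. DDC cytoplasm carries other preparation names. The other genes, C8b among them, change sign between the DDC gradient pools.

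Diet differences were tested in 1 linear model of log2(FPKM + 1) over all 16 libraries (limma, 8 group means, Benjamini-Hochberg adjusted p under 0.05 over all genes tested), and every adjusted p below is from that kind of fit. In cytoplasm 2 of the 9 genes were called, against 22.4% of 11760 genes tested. On monosomes 2 of 9 were called, against 37.0% of all genes. On light polysomes 2 of 9 were called, against 30.1%, and on heavy polysomes 1 of 9, against 24.8%. The share of members called was thus near or below that of all genes. The model took the pools of 1 preparation as independent, although replicate differences correlated between the CHOW pools. Among the members called, Cfb was higher with DDC in cytoplasm and on monosomes, C8g was lower in all 4 pools, and C8b was lower on light polysomes. The median DDC minus CHOW difference of the 9 genes was -0.01 in cytoplasm, -0.36 on monosomes, -1.06 on light and -1.04 on heavy polysomes, while the median of all genes lay between 0.01 and 0.04.

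**Figure D2:**
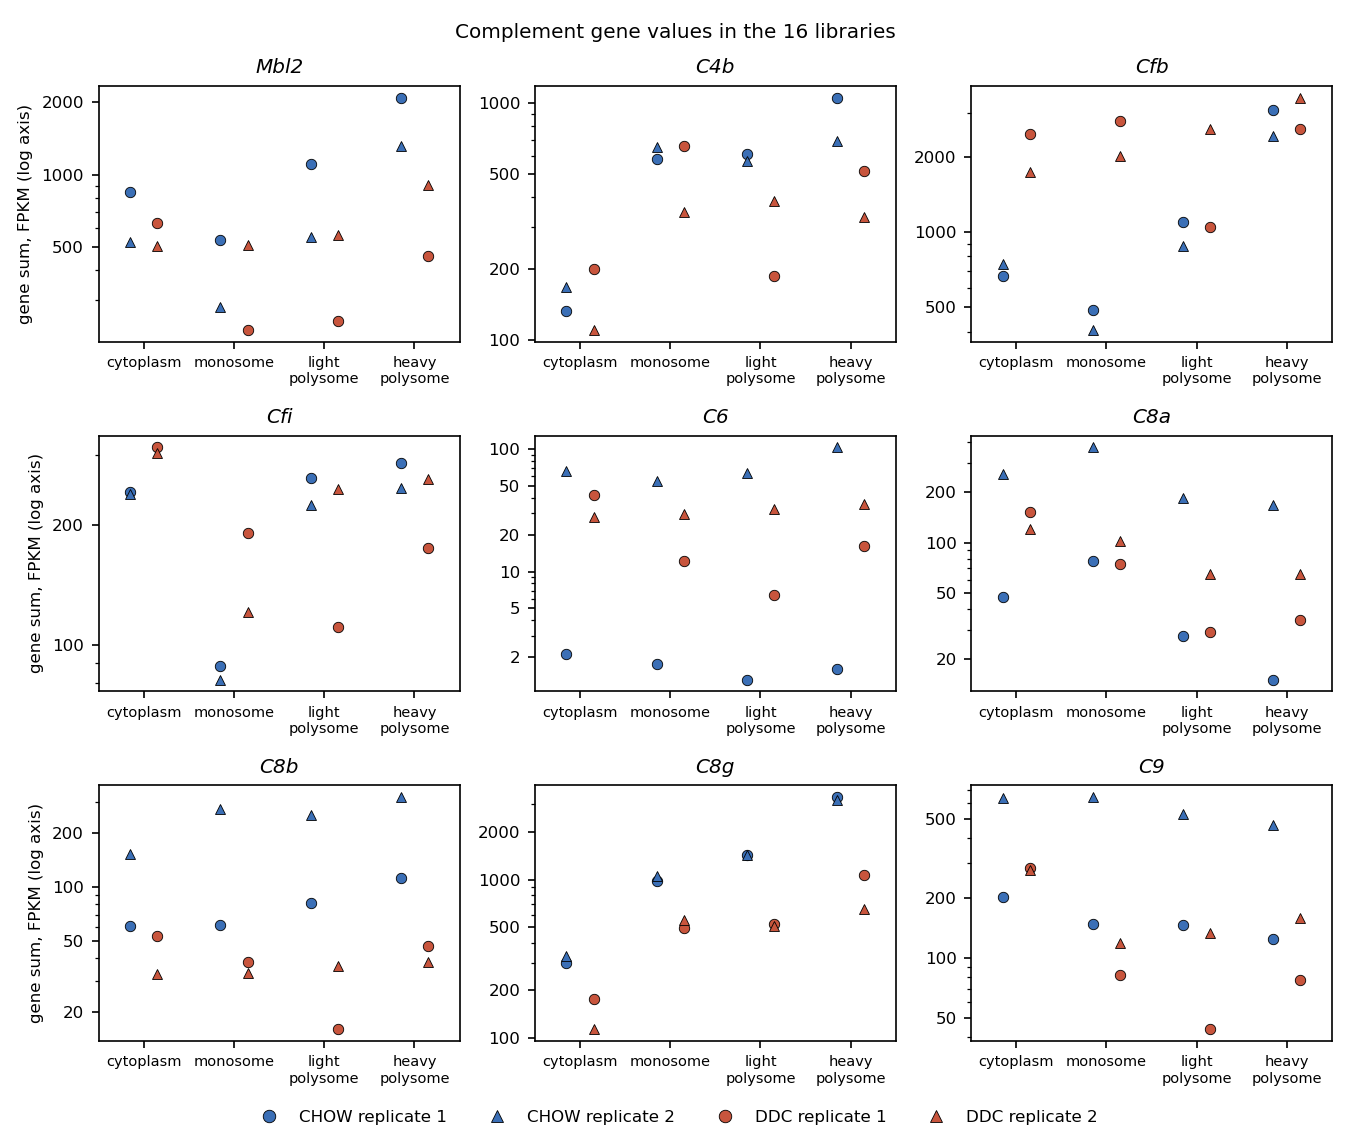
Gene sums of transcript FPKM (log axis) for the 9 complement genes in each of the 16 libraries, by RNA pool (x axis), diet (colour) and replicate (symbol). C8g replicates of CHOW coincide and lie above DDC in every pool. The CHOW replicates of C6 bracket the DDC values in every pool, those of C8a in every pool but the monosomes, and those of C9 in cytoplasm.

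Mbl2 (chr19:30232942-30239687, plus strand, 6 exons, a single transcript of 1089 nt) encodes a mannose-binding lectin that the liver secretes. It measured 842 and 523 FPKM in CHOW cytoplasm (replicates 1 and 2) and 629 and 507 in DDC cytoplasm. On monosomes it measured 532 and 280 with CHOW and 226 and 509 with DDC, and on light polysomes 1101 and 551 against 245 and 563. On heavy polysomes CHOW gave 2087 and 1309 FPKM and DDC 457 and 908. The diets overlapped in every pool but the heavy polysomes, where both CHOW libraries were higher. None of the 4 diet differences passed the test, and the one on heavy polysomes was -1.36 ± 0.56 (SE, adjusted p = 0.0981).

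C4b (chr17:34728380-34743882, minus strand, 41 exons) encodes complement C4, whose larger fragment joins C2 in the classical and lectin convertase. Its near-identical neighbour copy C4a can share reads with it, so its values are uncertain. The gene sum was 133 and 168 FPKM in CHOW cytoplasm and 201 and 110 in DDC cytoplasm, 579 and 653 against 662 and 348 on monosomes, 609 and 569 against 187 and 387 on light polysomes, and 1054 and 690 against 517 and 330 on heavy polysomes. CHOW was above DDC without overlap on light and heavy polysomes, but neither difference passed the test (-1.13 ± 0.43, adjusted p = 0.0638, and -1.04 ± 0.43, adjusted p = 0.0966). Leaving out 1 library at a time moved the light polysome difference between -1.65 and -0.61, and it passed without DDC replicate 2.

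In the gradient pools the C4b sum of FPKM was made up mostly of a 749-nt retained-intron model, C4b-203. By FPKM times length, the full-length coding model held 35.0% and 34.8% on CHOW monosomes and 58.1% to 96.2% in the other groups. C4b-203 held 93.0% and 93.1% of the CHOW monosome FPKM and 66.2% and 69.4% of the DDC monosome FPKM. In cytoplasm the full-length coding model of 5379 nt held 52.7% to 78.0%. Counting only full-length coding models, which were defined after these values had been seen as transcripts with at least 80% of the gene's longest coding sequence, C4b measured 40.4 and 45.2 FPKM on CHOW monosomes and 224 and 107 on DDC monosomes. By that count C4b rose on monosomes with DDC by 1.83 ± 0.36 (adjusted p = 0.00225; 38.8% of all genes called), where the sum over all transcripts had given -0.36 ± 0.43 (adjusted p = 0.541) and transcripts weighted by length gave 0.70 ± 0.36 (adjusted p = 0.142). Without CHOW replicate 1 the full-length difference was 1.75 ± 0.51 (adjusted p = 0.0396). In cytoplasm the full-length values overlapped, within 86.2 to 106 FPKM in the 4 libraries.

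Cfb (chr17:34856374-34862518, minus strand, 18 exons) encodes factor B, the serine protease of the alternative pathway convertase. It measured 666 and 749 FPKM in CHOW cytoplasm and 2477 and 1746 in DDC cytoplasm, a rise of 1.56 ± 0.38 (adjusted p = 0.0126). On monosomes it measured 486 and 406 with CHOW and 2798 and 2020 with DDC, a rise of 2.42 ± 0.38 (adjusted p = 0.000584). On light polysomes the values were 1101 and 879 against 1049 and 2588, and on heavy polysomes 3095 and 2438 against 2596 and 3457. The diets did not overlap in cytoplasm or on monosomes and did overlap on both polysome pools, where the differences of 0.74 and 0.13 did not pass the test (adjusted p = 0.16 and 0.856). The light polysome difference ran from 0.09 to 1.4 when 1 library was left out, and it passed without DDC replicate 1 (adjusted p = 0.0133). The monosome rise also passed without CHOW replicate 1 (2.55 ± 0.61, adjusted p = 0.0227), and the cytoplasmic one did not (1.47 ± 0.61, adjusted p = 0.179).

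Most of the Cfb sum lay in 2 coding fragments, Cfb-204 of 973 nt and Cfb-208 of 905 nt, and full-length coding models held 5.93% to 43.2% of it. Full-length Cfb measured 288 and 257 FPKM in CHOW cytoplasm and 412 and 448 in DDC cytoplasm, 36.1 and 24.1 against 518 and 280 on monosomes, 80.9 and 53.1 against 200.4 and 426 on light polysomes, and 299 and 231 against 229 and 509 on heavy polysomes. By this count the cytoplasmic difference of 0.66 ± 0.45 did not pass (adjusted p = 0.322), whereas the monosome and light polysome rises of 3.64 ± 0.45 and 2.14 ± 0.45 passed (adjusted p = 0.000138 and 0.00415). On light polysomes 30.9% of all genes were called by this count, and in cytoplasm 24.4%. Both passed without CHOW replicate 1 too, at 3.93 ± 0.64 and 2.44 ± 0.64 (adjusted p = 0.00598 and 0.043). The monosome rise was thus found by both counts, while the pool in which a second rise was called depended on which transcripts were summed. Gm20547, a gene that overlaps Cfb on the same strand, was at 0 to 3.59 FPKM.

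**Figure D3:**
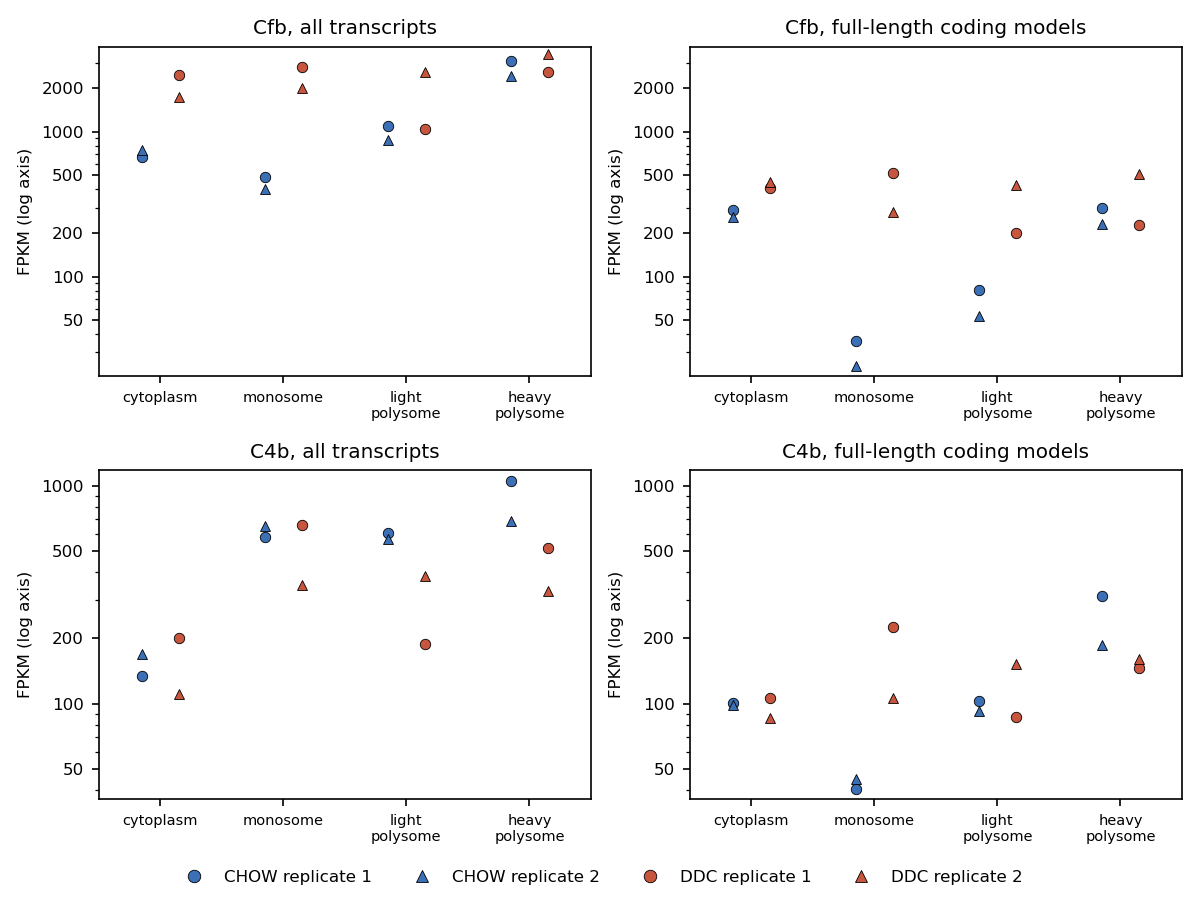
Cfb (top) and C4b (bottom) in the 16 libraries as the sum over all transcripts (left) and over full-length coding models (right), in FPKM on log axes. On CHOW monosomes full-length Cfb was at 36.1 and 24.1 FPKM and full-length C4b at 40.4 and 45.2, the lowest pool for both genes in CHOW.

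Cfi (chr3:129835884-129875332, plus strand, 14 exons) encodes factor I, which cleaves C3b and C4b with the help of cofactors. It measured 242 and 240 FPKM in CHOW cytoplasm and 314 and 303 in DDC cytoplasm, 88.2 and 81.6 against 190 and 121 on monosomes, 263 and 224 against 111 and 246 on light polysomes, and 287 and 248 against 175 and 261 on heavy polysomes. DDC was higher without overlap in cytoplasm and on monosomes. None of the 4 differences passed the test, and the largest of them in size, on monosomes, was 0.83 ± 0.35 (adjusted p = 0.0797). The light polysome difference passed when DDC replicate 2 was left out (-1.12, adjusted p = 0.0278).

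C8g (chr2:25498651-25501719, minus strand, 7 exons) encodes the gamma chain of C8, a small lipocalin bound to the alpha chain, and it had the most regular pattern of the 9 genes. It measured 298 and 328 FPKM in CHOW cytoplasm and 176 and 114 in DDC cytoplasm, 985 and 1051 against 497 and 556 on monosomes, 1428 and 1435 against 522 and 513 on light polysomes, and 3329 and 3160 against 1066 and 649 on heavy polysomes. Every CHOW value lay above every DDC value of the same pool. C8g fell by 1.14 on the log2 scale in cytoplasm (SE 0.27, adjusted p = 0.0101) and by 0.95 on monosomes (SE 0.27, adjusted p = 0.0152). It fell by 1.47 on light polysomes (adjusted p = 0.00174) and fell by 1.96 on heavy polysomes (adjusted p = 0.000307).

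In CHOW the C8g levels were ordered heavy polysomes, light polysomes, monosomes and cytoplasm with no overlap between neighbours, and in DDC the monosome and light polysome values overlapped. Summed FPKM per library ran in the same order in CHOW, so the order of C8g is one of relative levels. Counting full-length coding models left all 4 diet calls in place, with differences of -1.05, -0.99, -1.53 and -2.01 from cytoplasm to heavy polysomes (25.4% of all genes called in the last). Without CHOW replicate 1 the differences were -1.21, -1.0, -1.47 and -1.92, and only the one on heavy polysomes passed (adjusted p = 0.0283). Between the 2 coding models of C8g, the 822-nt one stood at 560 FPKM on CHOW monosomes and 0.141 in CHOW cytoplasm in replicate 1, next to 361 and 246 FPKM for the 1150-nt model. Fbxw5, which overlaps C8g on the opposite strand, was at 7.97 to 42.4 FPKM; the library kit marks strand, but whether the counting used it is not given in the sources used here.

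C8b (chr4:104766317-104804548, plus strand, 12 exons) encodes the beta chain of C8, which docks C8 onto the complex of C5b, C6 and C7. It measured 60.5 and 154 FPKM in CHOW cytoplasm and 53.0 and 32.8 in DDC cytoplasm, 61.6 and 275 against 38.1 and 33.2 on monosomes, 81.3 and 254 against 16.015 and 36.1 on light polysomes, and 113 and 321 against 46.8 and 38.2 on heavy polysomes. Both CHOW replicates lay above both DDC replicates in every pool. With all libraries only the light polysome difference of -2.53 ± 0.76 passed (adjusted p = 0.0255). The other differences were -1.19, -1.85 and -2.14 in cytoplasm, on monosomes and on heavy polysomes (adjusted p = 0.296, 0.0764 and 0.0595). With the preparation as a random replicate block the monosome and heavy polysome differences passed as well (limma, adjusted p = 0.0411 and 0.0291). That block used 1 correlation of 0.179 for all genes, while C8b differed between the CHOW replicates by 1.33 to 2.14 in the same direction in every pool. The pools of a preparation are not separate replicates of diet, so these passes add no independent evidence.

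Without CHOW replicate 1, C8b was lower with DDC, with differences of -2.92 on monosomes, -3.34 on light and -2.89 on heavy polysomes (adjusted p = 0.0087, 0.00855 and 0.0126). A 1061-nt processed transcript with no coding sequence, C8b-203, held a large part of C8b FPKM in the gradient pools and was at 0 in the cytoplasm of CHOW replicate 1. Full-length coding models held as little as 19.5% of FPKM in those pools, and as little as 33.8% of FPKM times length. Counting full-length models ended the light polysome call (-1.55 ± 0.74, adjusted p = 0.133). With full-length models and without CHOW replicate 1, the differences of -2.48 on light and -2.55 on heavy polysomes passed (adjusted p = 0.0228 and 0.0188) and the monosome one did not (-1.40 ± 0.53, adjusted p = 0.0844).

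C8a (chr4:104815679-104876398, minus strand, 11 exons) is the neighbour of C8b and encodes the alpha chain, which inserts into the membrane. It measured 47.5 and 257 FPKM in CHOW cytoplasm and 152 and 119.99 in DDC cytoplasm, 77.6 and 372 against 74.1 and 102 on monosomes, 27.6 and 185 against 29.3 and 65.1 on light polysomes, and 15.1 and 168 against 34.4 and 64.8 on heavy polysomes. Within each pool the DDC values lay between those of the 2 CHOW replicates, apart from DDC monosome replicate 1, which was just below both. No diet difference passed with all libraries (-0.96 to 0.28). Without CHOW replicate 1 the differences were -0.93, -2.08, -2.06 and -1.81, of which the monosome one passed (adjusted p = 0.0333). With full-length models as well, the monosome difference was -1.08 ± 0.58 and did not pass (adjusted p = 0.199).

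C6 (chr15:4727175-4814967, plus strand, 17 exons) encodes the first protein to bind C5b. It measured 2.13 and 66.6 FPKM in CHOW cytoplasm and 42.2 and 27.8 in DDC cytoplasm, 1.76 and 55.0 against 12.2 and 29.7 on monosomes, 1.31 and 63.7 against 6.47 and 32.7 on light polysomes, and 1.59 and 104 against 16.3 and 35.4 on heavy polysomes. The DDC values of every pool lay between the 2 CHOW replicates. The diet difference was 1.28 ± 2.03 in cytoplasm and 0.61 ± 2.03 on heavy polysomes with all libraries, and -0.94 ± 0.93 and -2.06 ± 0.93 without CHOW replicate 1. None passed in either fit (adjusted p from 0.178 to 0.911), and the sign turned in all 4 pools.

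C9 (chr15:6445327-6498751, plus strand, 11 exons), on the same chromosome as C6, encodes the protein that polymerises into the pore wall. It measured 201 and 634 FPKM in CHOW cytoplasm and 282 and 277 in DDC cytoplasm, 148 and 644 against 82.4 and 119 on monosomes, 146 and 527 against 43.8 and 133 on light polysomes, and 124 and 464 against 77.9 and 159 on heavy polysomes. CHOW was higher without overlap on monosomes and light polysomes. With all libraries no difference passed (adjusted p = 0.166 and 0.135 for these 2 pools). Without CHOW replicate 1, C9 was lower by differences of -2.69 on monosomes and -2.77 on light polysomes (adjusted p = 0.0281 and 0.0378), and the differences of -1.18 in cytoplasm and -2.05 on heavy polysomes did not pass (adjusted p = 0.328 and 0.0884). Full-length models gave -2.49 and -2.67 in the same 2 pools without CHOW replicate 1.

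The fit without CHOW replicate 1 keeps the replicate in which C6, C8a, C8b and C9 were higher, which moves their differences down. Leaving out CHOW monosome replicate 2 instead gave monosome differences of 0.16 for C8a, -0.77 for C8b and -0.58 for C9. Leaving out CHOW replicate 1 changed which members were called. On monosomes 4 of 9 were then called (27.2% of all genes), on light polysomes 2 (15.4%), on heavy polysomes 2 (15.5%) and in cytoplasm none (8.25%). Of the 8 calls, 7 were lower with DDC: C8a, C8b and C9 on monosomes (12.5% of all genes called lower), C8b and C9 on light polysomes (7.12%) and C8b and C8g on heavy polysomes (6.38%). The other was Cfb, higher on monosomes (14.7% of all genes called higher). That balance depended on the transcripts summed: without CHOW replicate 1 and with protein-coding transcripts or full-length models, the monosome calls were C4b and Cfb, both higher, and C9, lower. With full-length models the light polysome calls were then C8b and C9, lower, and Cfb, higher.

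**Figure D4:**
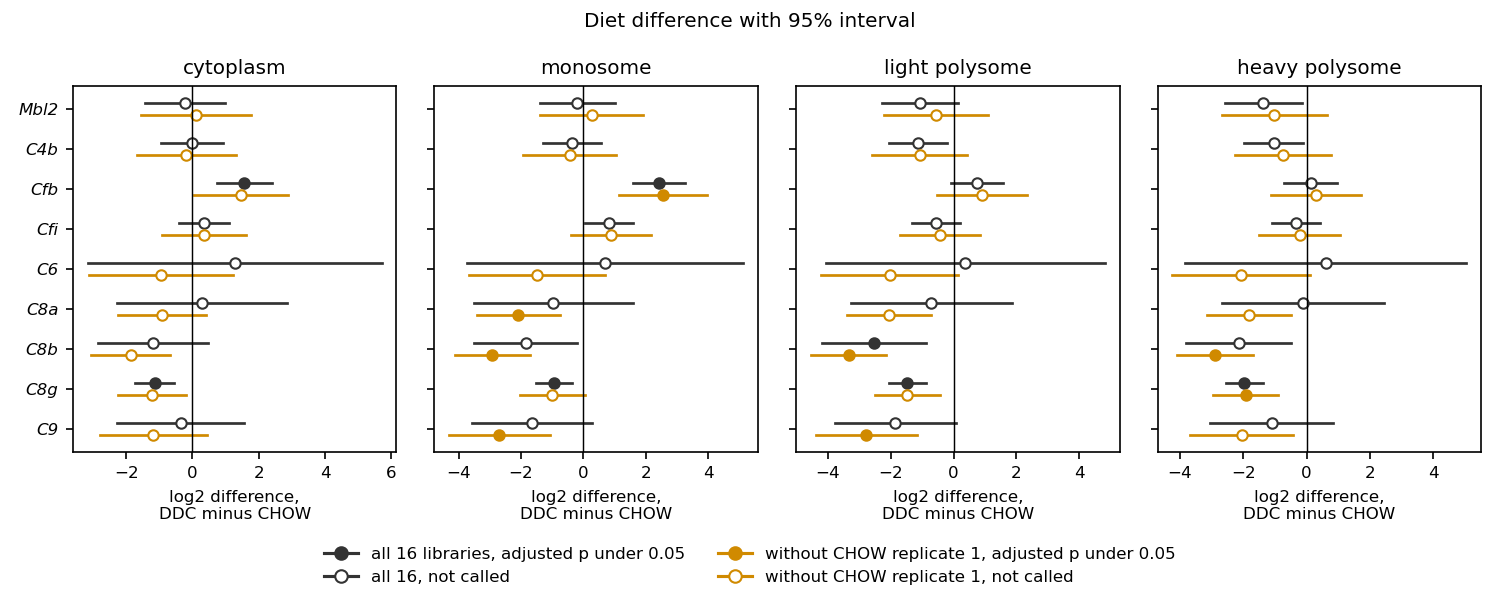
DDC minus CHOW difference in log2(FPKM + 1), with its 95% interval, for the 9 genes in the 4 RNA pools, with all 16 libraries (grey) and without the 4 libraries of CHOW replicate 1 (orange); filled points passed an adjusted p of 0.05. Cfb lies right of 0 on monosomes in both fits, C8g left of 0 in every pool, and C6, C8a, C8b and C9 move left without CHOW replicate 1.

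The 3 gradient pools also allow the relative level of each message to be compared between pools within a diet. Between heavy polysomes and monosomes in CHOW, 44.8% of all genes were called in either direction and 23.7% higher on heavy polysomes. In FPKM, 4 of the 9 genes were called higher there. These were Cfb (2.63 ± 0.38, adjusted p = 0.000198), Mbl2 (2.09 ± 0.56, adjusted p = 0.0089), C8g (1.67 ± 0.27, adjusted p = 0.00037) and Cfi (1.64 ± 0.35, adjusted p = 0.00231). Their CHOW monosome and heavy polysome values did not overlap. With 2 libraries in each group, non-overlap here and between the diets only describes the values and is no separate test. No member was called lower. In DDC none of the 9 was called by limma, against 32.7% of all genes, and 1 had an unadjusted p under 0.05. The DDC differences of the same 4 genes were 0.33 for Cfb, 0.92 for Mbl2, 0.66 for C8g and 0.49 for Cfi. The median over the 9 genes was 0.54 in CHOW and 0.32 in DDC, and that of all genes was 0 in both.

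Gradient fractions of 1 preparation share a replicate number within a diet. With the preparation as a fixed replicate block over the 12 gradient libraries, C8a fell from monosomes to heavy polysomes in both diets, with differences of -1.71 in CHOW and -0.86 in DDC (adjusted p = 0.00149 and 0.0482; 45.4% and 33.5% of all genes called), and Mbl2 rose in DDC by 0.92 (adjusted p = 0.0105). C8a-204, a 749-nt transcript with no coding sequence, held 68.3% and 56.4% of the C8a FPKM on CHOW monosomes. By FPKM times length, full-length models held 68.6% and 78.3% there. Counting full-length models in the same blocked fit, the C8a differences were -0.71 in CHOW and -0.68 in DDC (adjusted p = 0.0184 and 0.0299). With all libraries and without the block neither passed by either count (full-length adjusted p = 0.657 and 0.68). The 4 CHOW calls without the block rested in part on CHOW replicate 1. Without its libraries Cfb passed (2.58 ± 0.70, adjusted p = 0.0342; 25.9% of all genes called), and C8g, Cfi and Mbl2 kept differences of 1.59, 1.59 and 2.22 that did not (adjusted p = 0.0569, 0.101 and 0.0834). Counting full-length models (48.0% of all genes called) added C4b, at 2.47 ± 0.36 in CHOW (adjusted p = 0.000186) and -0.02 ± 0.36 in DDC.

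**Figure D5:**
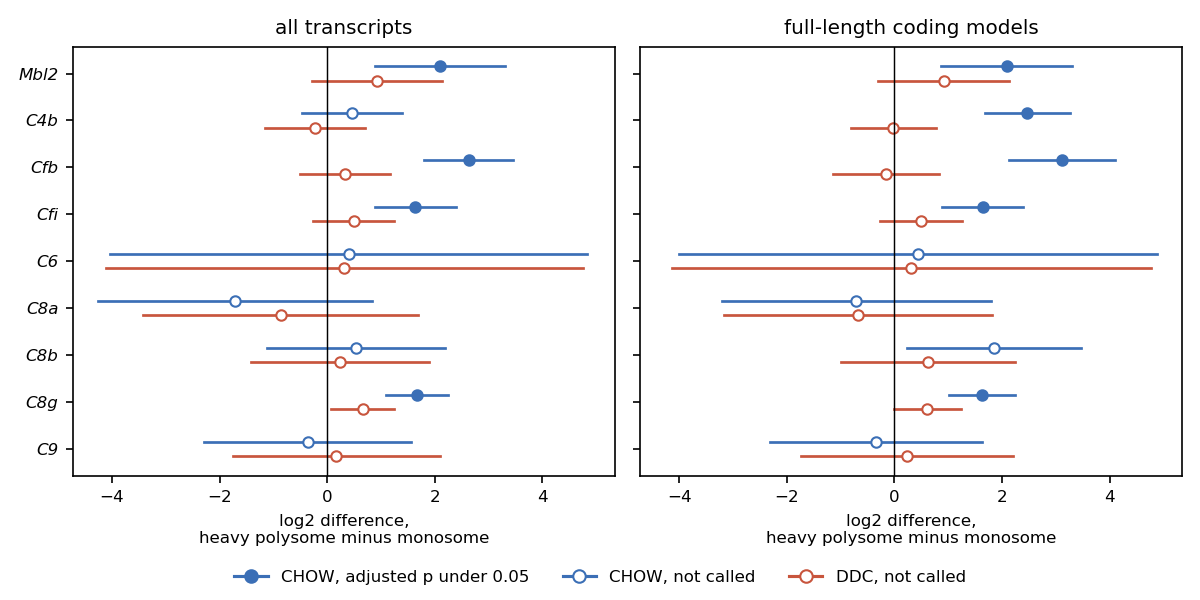
Heavy polysome minus monosome difference in log2(FPKM + 1), with its 95% interval, for the 9 genes in CHOW and DDC, from all transcripts (left) and from full-length coding models (right); filled points passed an adjusted p of 0.05. In CHOW, 4 genes pass on the left and C4b joins them on the right, while no DDC value passes.

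Whether that difference itself differed between the diets was tested as an interaction. None of the 9 genes passed with all transcripts, against 1.90% of all genes, and 3 had an unadjusted p under 0.05. Cfb came nearest, with a DDC minus CHOW difference of -2.29 ± 0.54 (adjusted p = 0.0509, and 0.0245 with the random replicate block). With full-length models Cfb and C4b passed, at -3.27 ± 0.64 and -2.48 ± 0.51 (adjusted p = 0.0216 and 0.0265; 4.50% of all genes called). Without CHOW replicate 1 the full-length values were -3.37 and -2.04 and neither passed (adjusted p = 0.142 and 0.23). For heavy polysomes against cytoplasm no member passed, against 0.102% of all genes, and 2 had an unadjusted p under 0.05.

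The coding sequences run from 606 nt for C8g to 5214 nt for C4b, and across the 9 genes Pearson's r with the heavy polysome minus monosome difference was -0.29 in CHOW and -0.55 in DDC from all transcripts. From full-length models it was 0.06 and -0.53. These describe 9 genes measured in the same libraries and carry no test.

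The genes most like each member were sought among 4090 protein-coding genes outside the complement lists, with a mean of at least 10 FPKM, by Pearson's r over the 8 group means. The nearest were Marc1 to C8g (r = 0.997), Cyp2c67 to C8b (0.992), Tomm40 to Cfb (0.99), Cpq to Mbl2 (0.989), Me1 to C9 (0.986), Usp4 to C4b (0.971), Dhcr7 to C6 (0.966), Pitpnb to C8a (0.957) and Gfm1 to Cfi (0.949). These points share libraries. The nearest gene was the best of 4090 and the closest other member the best of far fewer. A rank of that member therefore does not show how unlike the members are. Over the group means the closest other member would have ranked 27 for C4b and from 128 to 793 for the others. Over the 16 libraries that rank was 4 for C8a, 6 for C6, 14 for C9, 21 for C4b and from 67 to 1011 for the other 5. Over the 16 libraries singly, Marc1, Tomm40 and Gfm1 were again the nearest of C8g, Cfb and Cfi. For C6 it was then Mup20, a major urinary protein (r = 0.964). Within the set, C4b and C8g were the closest pair over the 16 libraries (r = 0.875), C8a was closest to C9 (0.812) and C6 to C8a (0.793).

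Beside the 9 genes, 46 other complement genes were listed by role, of which 38 could be tested in cytoplasm. With DDC 12 rose and 5 fell there, against 12.7% of all genes called higher and 9.68% lower. On monosomes 15 rose and 7 fell of 39 (21.0% and 15.9% of all genes). On light polysomes 11 rose and 8 fell of 38 (16.6% and 13.5%), and on heavy polysomes 13 rose and 8 fell of 39 (13.9% and 10.9%). In the fit without CHOW replicate 1 the same counts were 6 and 5 in cytoplasm (4.69% and 3.56% of all genes), 11 and 6 on monosomes (14.7% and 12.5%), 6 and 4 on light polysomes (8.31% and 7.12%) and 9 and 2 on heavy polysomes (9.15% and 6.38%). All 6 receptors tested rose in cytoplasm and on heavy polysomes, and 5 of 6 on each of the other pools. The receptors called numbered 2 of 6 in cytoplasm, on monosomes and on light polysomes and 4 of 6 on heavy polysomes without CHOW replicate 1. C1qa, a chain of the C1q recognition protein that macrophages make, measured 19.8 and 14.4 FPKM in CHOW cytoplasm and 90.9 and 132 in DDC cytoplasm, a rise of 2.63 (adjusted p = 0.000186). Hc, the mouse C5 gene, whose cleaved product the terminal components bind, measured 30.0 and 38.1 against 10.8 and 8.06 in cytoplasm and fell by 1.75 (adjusted p = 0.00679). It fell as well on monosomes (-1.53, adjusted p = 0.00802) and heavy polysomes (-1.23, adjusted p = 0.0323) and did not pass on light polysomes (-0.82, adjusted p = 0.121). The C1qa call in cytoplasm and these 3 calls of Hc also passed without CHOW replicate 1 (adjusted p = 0.0103 for C1qa and 0.0144 to 0.024 for Hc). C3 rose by 2.67 on monosomes (adjusted p = 0.00241, and 0.0208 without CHOW replicate 1) and is listed at 0 in DDC cytoplasm and on DDC light polysomes, where it was not tested. C7 was at 0 in all 16 libraries.

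Markers of some other cells moved with the diet as well. The 12 Kupffer cell and macrophage markers summed to 62.2 to 83.8 FPKM in CHOW cytoplasm and 481 to 751 in DDC cytoplasm, with 7 called higher (12.7% of all genes). On heavy polysomes they summed to 134 to 253 against 2791 to 3488, with 11 called higher (13.9% of all genes). The 10 stellate cell and fibroblast markers summed to 25.3 to 41.6 against 118 to 138 in cytoplasm, with 7 called higher, and the 8 cholangiocyte markers to 0.835 to 0.99 against 71.3 to 108. None of the 7 endothelial, 4 neutrophil and 5 red blood cell markers tested in cytoplasm was called. On heavy polysomes 2 endothelial and 2 neutrophil markers were called higher. No lymphocyte marker could be tested. Of the 10 hepatocyte markers 8 were above 0 in the cytoplasm of each diet, and they summed to 36676 to 41876 FPKM in CHOW and 21891 to 36252 in DDC. These sums are over different genes, since Serpina1c was at 0 in CHOW cytoplasm and Hp in DDC cytoplasm. Of the 7 tested there, none was called, and on heavy polysomes 2 fell with all libraries and none without CHOW replicate 1. Without it 6 macrophage and 4 stellate cell markers were called higher in cytoplasm. Tf, a defining hepatocyte gene, is listed at 0 in all 8 groups. The part of these markers in the differences of the 9 genes was not tested, and in bulk RNA fewer cells of a type and less RNA per cell cannot be told apart.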

How the data were processed

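Per the labels, polyadenylated RNA of hepatocytes was sequenced with a stranded kit. Per the submitters' processing notes the authors aligned reads to GRCm38 (mm10); the tools named are STAR 2.4.2a, Cuffnorm, Trimmomatic, bcl2fastq 2.17.1.14 and Picard 1.119; their options are not given in the sources used here. The deposited values are FPKM per transcript, not counts. Depth per library is unknown. In cytoplasm the most common small value of FPKM times length, over genes of a single transcript, was taken as 1 fragment (1 fragment per kilobase is then 0.0148 to 0.0269 FPKM). Summed FPKM ran from 373976 to 1379630 a library.

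GENCODE M21 assigned transcripts to genes (116753 of 117592 matched, 99.29%) and FPKM summed per gene, which lets short models weigh as much as long ones. Genes at 1 FPKM or more in 2 libraries were fitted as log2(FPKM + 1) with limma 3.58.1 (R 4.3.3; 8 group means, trend, 8 residual and 3.905 prior degrees of freedom, two-sided, Benjamini-Hochberg). Fold changes on this scale understate those of low genes. A gene at 0 in both libraries of a group and at 100 FPKM or more elsewhere was not measured there. The fit was tested on simulated data with independent errors in each library, which does not cover differences shared by the pools of a preparation. Alternatives were pseudocount, filter, scaling, transcript sets, libraries left out and blocks.

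Replicate numbers pair the pools within a diet, apart from DDC cytoplasm. Differences between replicates correlated at 0.357 to 0.749 within CHOW and 0.305 to 0.365 between DDC gradient pools. They correlated at 0.00973, -0.0499 and 0.161 between DDC cytoplasm and DDC monosomes, light and heavy polysomes, and at -0.0938 to 0.0702 between diets. All 9 members, the lists and the comparisons were chosen with earlier results of these data known, and all 9 are named; other complement genes are named from a list fixed by role.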

Additional observations from a re-analysis of the deposited data

How the results depend on the processing

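Over the 8 comparisons, 11 of the 72 member values were called. All 11 kept their direction under every alternative run, and 2 kept their call under every one. Of the 61 values not called, 34 changed sign and 18 were called under at least 1 alternative, and 1 of these, C4b on monosomes, was called with the other sign. Its difference of -0.36 became 1.83 with protein-coding transcripts or full-length models, and 1.75 with either and without the 4 CHOW libraries numbered 1. The full-length and length-weighted sums and their combinations with left-out libraries or a block were chosen after seeing the data.

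The number of members called for DDC against CHOW was 2 in cytoplasm, 2 on monosomes, 2 on light and 1 on heavy polysomes. The share of all genes called under each alternative stands in brackets. In cytoplasm it became 1 with full-length models (24.4%) and 0 without the 4 CHOW libraries numbered 1, with any transcript set (8.25% to 9.35%). On monosomes it became 1 in a fit of only the groups compared (14.8%) and 4 without those CHOW libraries (27.2%). On light polysomes it became 1 with no filter (3369 of 21075 genes) and 1 with protein-coding transcripts (30.8%). On heavy polysomes it became 0 in a fit of only the groups compared (2.95%), 2 without those CHOW libraries, with any transcript set (14.6% to 15.5%), and 2 with the random replicate block (25.5%). For heavy polysomes against monosomes in CHOW it was 4, and 2 with libraries scaled to the same total (43.0%), 1 without those CHOW libraries (25.9%), 2 when protein-coding or full-length models were counted without them (27.9% and 28.4%), and 7 with full-length models and the fixed replicate block (49.3%). In DDC it was 0, and 2 with that block by either count (33.5% and 37.5%). For the diet's effect on that difference it was 0, and 1 with libraries scaled to the same upper quartile (2.90%) or total (2.06%), with length weighting (3.35%) or with the random replicate block (6.50%), and 2 with protein-coding transcripts (3.92%) or full-length models (4.50%, and 4.13% with full-length models and the fixed replicate block). Beyond these and the values in the report, the replicate blocks changed no count of members called by more than 1.5 times.

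Leaving out 1 library at a time gave 0 to 1 members called in cytoplasm, 1 to 3 on monosomes, 1 to 4 on light and 1 to 2 on heavy polysomes, 3 to 5 and 0 to 1 for heavy polysomes against monosomes in CHOW and in DDC, and 0 for both diet effects. The C8g difference in cytoplasm was -1.45 to -0.83 and lost its call without CHOW replicate 2 or DDC replicate 2. The Cfb rise there was 1.3 to 1.81 and lost its call without any 1 of CHOW replicates 1 and 2 and DDC replicate 1. On monosomes the C8g call ended without CHOW replicate 2 or DDC replicate 1 (-1.03 to -0.87 over all 4). On light polysomes the C8b call ended without CHOW replicate 2 or DDC replicate 1 (-3.34 to -1.71). The heavy polysome against monosome call of Mbl2 in CHOW ended without monosome replicate 2 or heavy polysome replicate 1 (1.63 to 2.56).

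Scaling libraries to the same total moved the median of all genes to 0.18 to 0.29 for DDC against CHOW and -0.38 for heavy polysomes against monosomes. Genes called higher and lower with DDC in cytoplasm went from 1492 and 1138 to 2356 and 943, on monosomes from 2472 and 1874 to 3286 and 1287, on light polysomes from 1956 and 1585 to 2669 and 989, and on heavy polysomes from 1634 and 1277 to 2285 and 514. For heavy polysomes against monosomes they went from 2787 and 2483 to 1296 and 3762 in CHOW and from 2137 and 1705 to 955 and 3155 in DDC. A fit of only the 2 heavy polysome groups called 263 and 84.

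The lowest share of full-length models, 5.93% of FPKM, was 14.2% of FPKM times length. With 16 libraries in place of 8 group means, 3 of 9 members kept their nearest gene. The r with coding length was 0.06 in CHOW and -0.53 in DDC from full-length models. The cause of these changes was not tested.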
